A study of Arabidopsis thaliana with 6 samples.

Results

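The transcripts described here are the 200 probe sets whose signal differed most between replicate rosettes of the same genotype. They were chosen from an Affymetrix table of 22810 probe sets in which 3 arrays of the Arabidopsis thaliana mutant pmr5 stand beside 3 arrays of the wild type Col-0. A probe set is the group of short probes that reads 1 transcript, and its value is a log2 signal, so that 1 unit is a 2-fold difference. Of the probe sets, 13513 were paired with exactly 1 gene, and 11933 of these genes were named only by a locus code. A mean log2 signal above 6 over the 6 arrays was reached by 3783 of them, and 3583 remained once the 200 highest means were left out. In 3345 the range of the pmr5 arrays overlapped that of the Col-0 arrays, and the 200 members are the 5.98% of these with the highest pooled within-genotype SD, the square root of the mean of both genotypes' variances.

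The pmr5 plants carried the pmr5 mutation, whose allele the labels do not give, and the Col-0 plants were wild type. Both were untreated, were grown at 22 °C under a 14 h photoperiod and were sampled as whole rosettes at an age of 3 weeks. Total RNA was extracted with Trizol, and 15 µg of it was turned into biotinylated cRNA. The arrays of a genotype are labelled biological replicates, but the labels do not say whether they came from separate sowings, harvests or pooled plants, so the spread between them may be partly technical.

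A rosette is a mixture of leaves of different ages and of cell types such as mesophyll, epidermis, guard cells and trichomes. Many leaf transcripts change within hours with the time of day, light, sugar supply, temperature, touch and attack, so rosettes of 1 genotype can differ where these were not the same at harvest. PMR5 belongs to the TRICHOME BIREFRINGENCE-LIKE family of plant proteins, several members of which take part in the acetylation of cell wall polysaccharides. In bulk tissue, fewer cells of a type and less RNA per cell cannot be told apart.

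The pooled SD chose the members, so their spread, the arrays that carried it and the difference between genotypes are given as description with no test. The members' pooled SD ran between 0.69 and 2.64 log2 units with a median of 0.88, against a median of 0.24 in the 3145 other probe sets that passed the same filters. Their signal was of the same height as that of the others, with a median of the mean log2 signal of 7.51 against 7.54. Within the pmr5 arrays the median range of a member was 1.62 log2 units, which is 3.08-fold, and within the Col-0 arrays it was 1.60 log2 units, which is 3.02-fold. In the other probe sets the median range was 0.41 log2 units in pmr5 and 0.40 in Col-0. The SD was larger in pmr5 for 103 members and larger in Col-0 for 97, so neither genotype held most of the spread. A range of at least 2 log2 units, or 4-fold, occurred in at least 1 genotype in 100 members and in both genotypes in 10.

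The limit between members and the rest was not a gap. The last members inside were AT1G80750, AT1G61100 and AT1G34750, at pooled SDs of 0.6890, 0.6887 and 0.6877. The first probe sets outside were AT3G01210, AT4G02540 and AT3G07010, at 0.6876, 0.6867 and 0.6844.

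Each member was assigned to the array that lay farthest from the mean of its genotype, together with the side on which it lay. The second pmr5 array was the farthest for 92 members and the first Col-0 array for 69, which is 161 of 200 or 80.5%. Among the other probe sets these 2 arrays were farthest in 60.0%. The remaining members were spread over pmr5 replicate 1 with 11, pmr5 replicate 3 with 2, Col-0 replicate 2 with 6 and Col-0 replicate 3 with 20. Of the members' summed squared deviations, 29.4% fell on pmr5 replicate 2 and 25.9% on Col-0 replicate 1. In the other probe sets these shares were 30.31% and 19.99%. Of these 2 arrays, only Col-0 replicate 1 thus held a larger share in the members than in the others.

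The side differed between the 2 arrays. Pmr5 replicate 2 was high in 51 members and low in 41, which is 25.5% and 20.5% of them, against 19.3% and 18.3% of the other probe sets. Col-0 replicate 1 was low in 53 members and high in 16. That is 26.5% low and 8% high, against 8.08% low and 14.4% high in the other probe sets, so among the members this array lay mostly on the low side. Col-0 replicate 3 was high in 18 members and low in 2, against 5.98% and 11.8% of the others. No member had pmr5 replicate 1 on the high side or pmr5 replicate 3 on the low side as its farthest array.

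**Figure D1:**
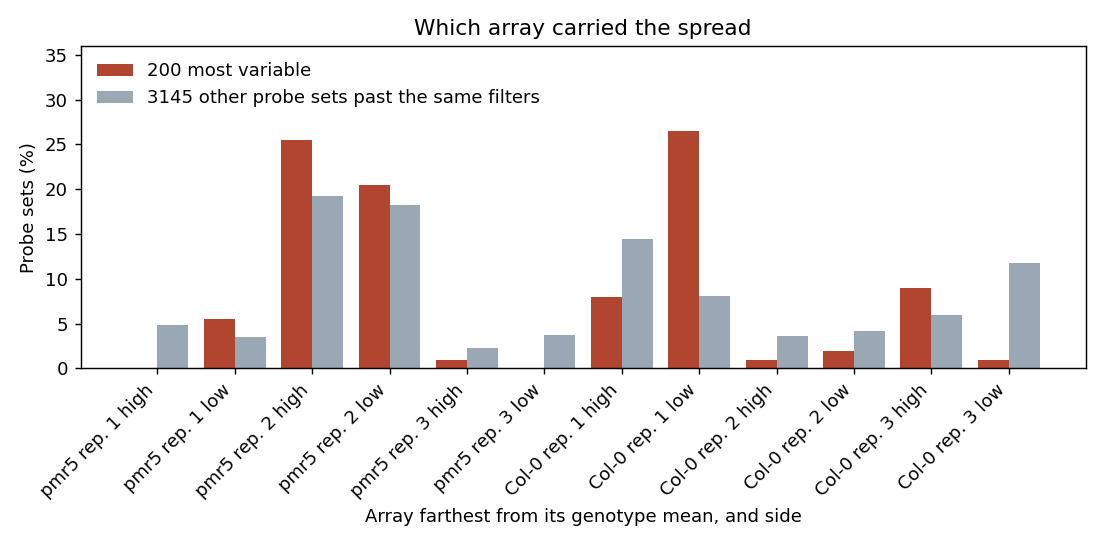
Bars give the percentage of probe sets (y axis) whose farthest array from its genotype mean, and the side, is the one named on the x axis, for the 200 members and for the 3145 other probe sets past the same filters. The tallest member bars are Col-0 replicate 1 low at 26.5%, pmr5 replicate 2 high at 25.5% and pmr5 replicate 2 low at 20.5%.

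The members' deviations were concentrated on few axes. With a genotype mean removed from each set of 3 arrays, 4 axes are free. A principal axis analysis of the deviations gave 51.9% of their sum of squares to the first axis, 37.1% to the second and 9.07% to the third. The other probe sets were not analysed in this way, so the concentration is not read as particular to the members. With pmr5 replicate 2 and Col-0 replicate 1 left out, the members' median pooled SD was 0.39 log2 units, against 0.15 in the other probe sets. The members were chosen by their SD over all arrays, and the arrays left out were those farthest in most of them. A fall was therefore built in, and nothing is read from its size.

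**Figure D2:**
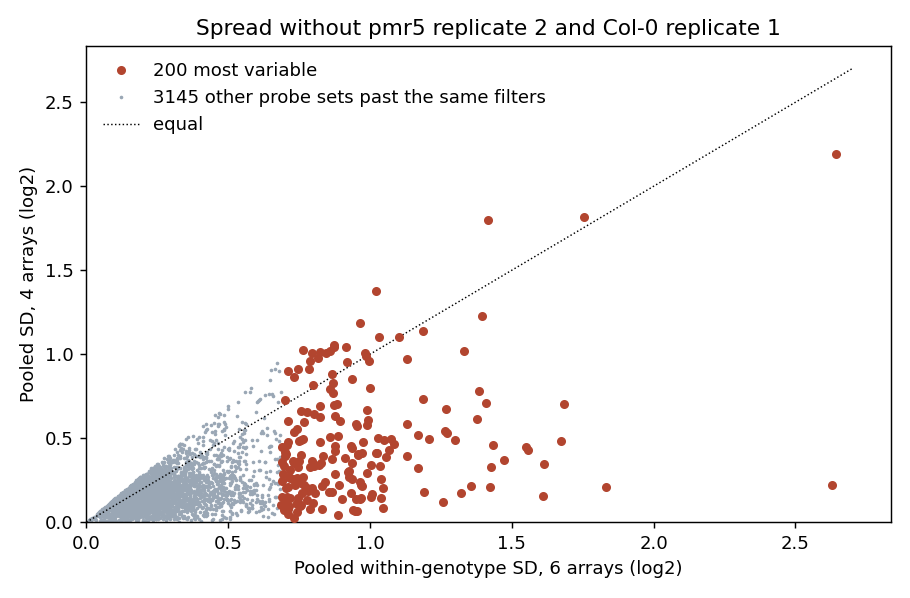
Each point is a probe set, with its pooled within-genotype SD over 6 arrays on the x axis and the SD over the 4 arrays left without pmr5 replicate 2 and Col-0 replicate 1 on the y axis, both in log2 units, with members in red and the other probe sets in grey. Most members fall well below the line of equality, and their median is 0.39 over the 4 arrays against 0.88 over all 6. The choice of members and of the arrays left out builds in such a fall.

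**Figure D3:**
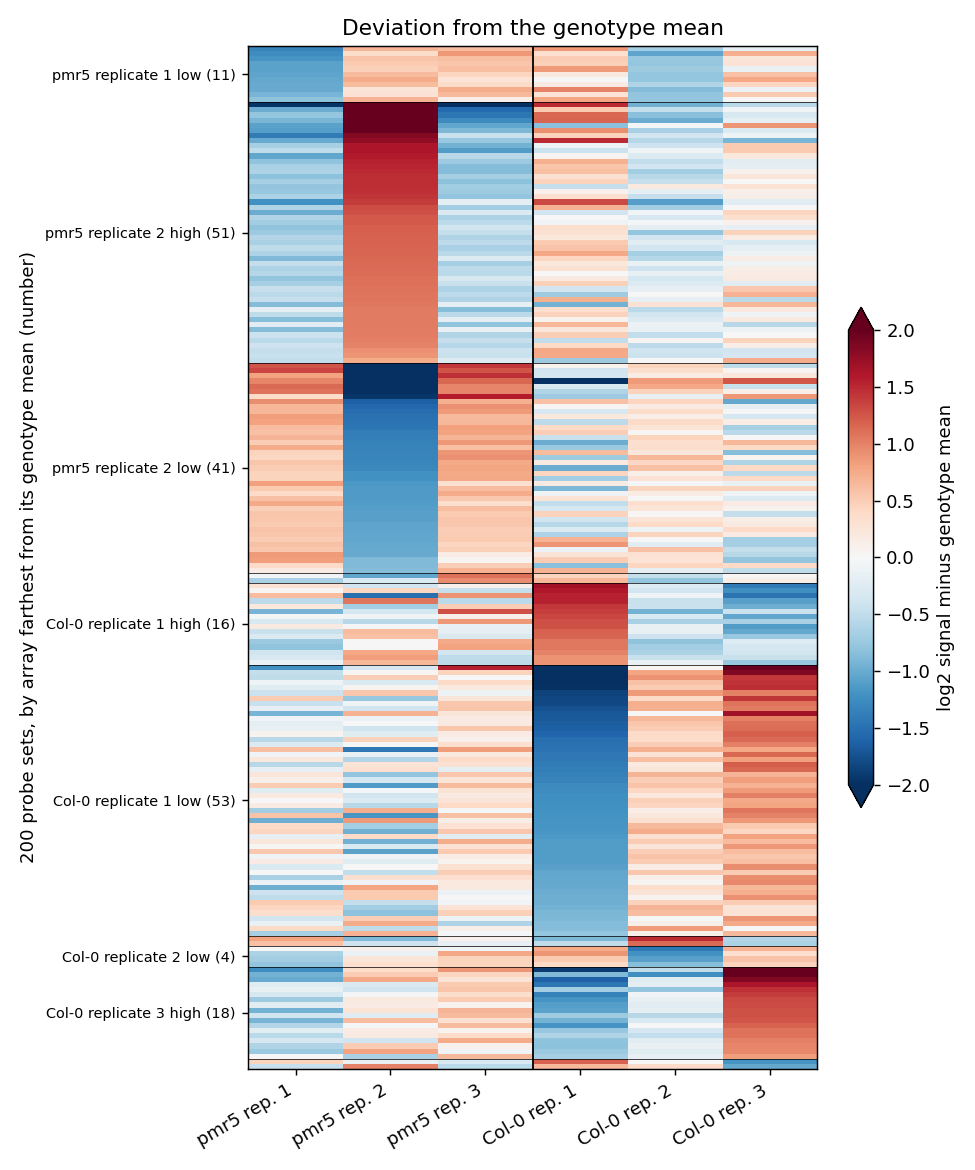
Each line is 1 of the 200 members and each column 1 array, with pmr5 on the left and Col-0 on the right; colour gives the log2 signal minus the mean of its genotype and saturates at 2 log2 units. The blocks are ordered by the farthest array and its side, and the largest are Col-0 replicate 1 low with 53 members, pmr5 replicate 2 high with 51 and pmr5 replicate 2 low with 41.

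Among the 12 members with the highest pooled SD, 5 had pmr5 replicate 2 on the high side, 3 had it on the low side, 3 had Col-0 replicate 1 on the low side and 1 had Col-0 replicate 3 on the high side. The reference used here gives none of these 12 a name beyond a code, so no function is stated for them.

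AT2G38240 had the highest pooled SD. It read 5.32, 6.20 and 8.09 in pmr5 replicates 1, 2 and 3, against 2.22, 5.75 and 9.14 in Col-0 replicates 1, 2 and 3. Both genotypes had their lowest value in replicate 1 and their highest in replicate 3, and the Col-0 arrays enclosed the pmr5 arrays. Col-0 replicate 1 was close to 2.19, the lowest value of the table, so no fold is given for this range. AT5G05600 read 5.96, 7.57 and 8.10 in pmr5, against 4.93, 6.33 and 9.27 in Col-0, with the same order in both genotypes and with Col-0 replicate 3 farthest from its mean. JRG21, named jasmonate-regulated gene 21 in RefSeq and not a member because it has a symbol, read 6.38, 7.96 and 9.21 in pmr5 and 3.71, 6.53 and 9.35 in Col-0, again in that order.

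AT2G27420 had the second pmr5 array on the high side. It read 3.74, 9.71 and 3.65 in pmr5 and 8.59, 6.12 and 6.56 in Col-0. Pmr5 replicate 2 was above every other array, and the other two pmr5 arrays were below every Col-0 array. Those 2 values lay below 4, near the lowest of the table, so the size of the range is uncertain. AT1G23205 showed this arrangement too, at 4.58, 8.13 and 4.03 in pmr5 and 7.33, 6.33 and 6.75 in Col-0. AT5G54130 read 6.25, 9.22 and 5.56 in pmr5 and 8.66, 6.66 and 7.19 in Col-0. AT5G42760 read 4.90, 7.999 and 4.54 in pmr5 and 7.35, 5.20 and 6.02 in Col-0. In each of these 4 the highest pmr5 array was replicate 2 and the highest Col-0 array was replicate 1. AT1G06000 differed from them on the Col-0 side, with 7.76, 10.96 and 7.80 in pmr5 and 8.43, 9.23 and 10.15 in Col-0, where replicate 3 was the highest.

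AT4G27450, AT3G47160 and AT3G62550 were low in pmr5 replicate 2. AT4G27450 read 10.58, 7.47 and 10.74 in pmr5 and 6.69, 9.63 and 10.02 in Col-0, so 1 array of each genotype stood about 3 log2 units below its neighbours. AT3G47160 read 8.002, 4.07 and 8.17 in pmr5, and its Col-0 arrays spanned 1.94-fold. AT3G62550 read 11.63, 7.70 and 11.54 in pmr5, and its Col-0 arrays spanned 1.69-fold. In the last 2, the Col-0 arrays lay between the low pmr5 array and the other two.

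AT3G18250 and AT4G12490 were low in Col-0 replicate 1. AT3G18250 read 6.17, 6.68 and 7.09 in pmr5, against 2.99, 6.40 and 7.46 in Col-0. AT4G12490 read 9.53, 10.54 and 10.06 in pmr5, against 7.74, 10.95 and 11.46 in Col-0. In both, Col-0 replicate 1 was the lowest of the 6 arrays and Col-0 replicate 3 the highest.

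**Figure D4:**
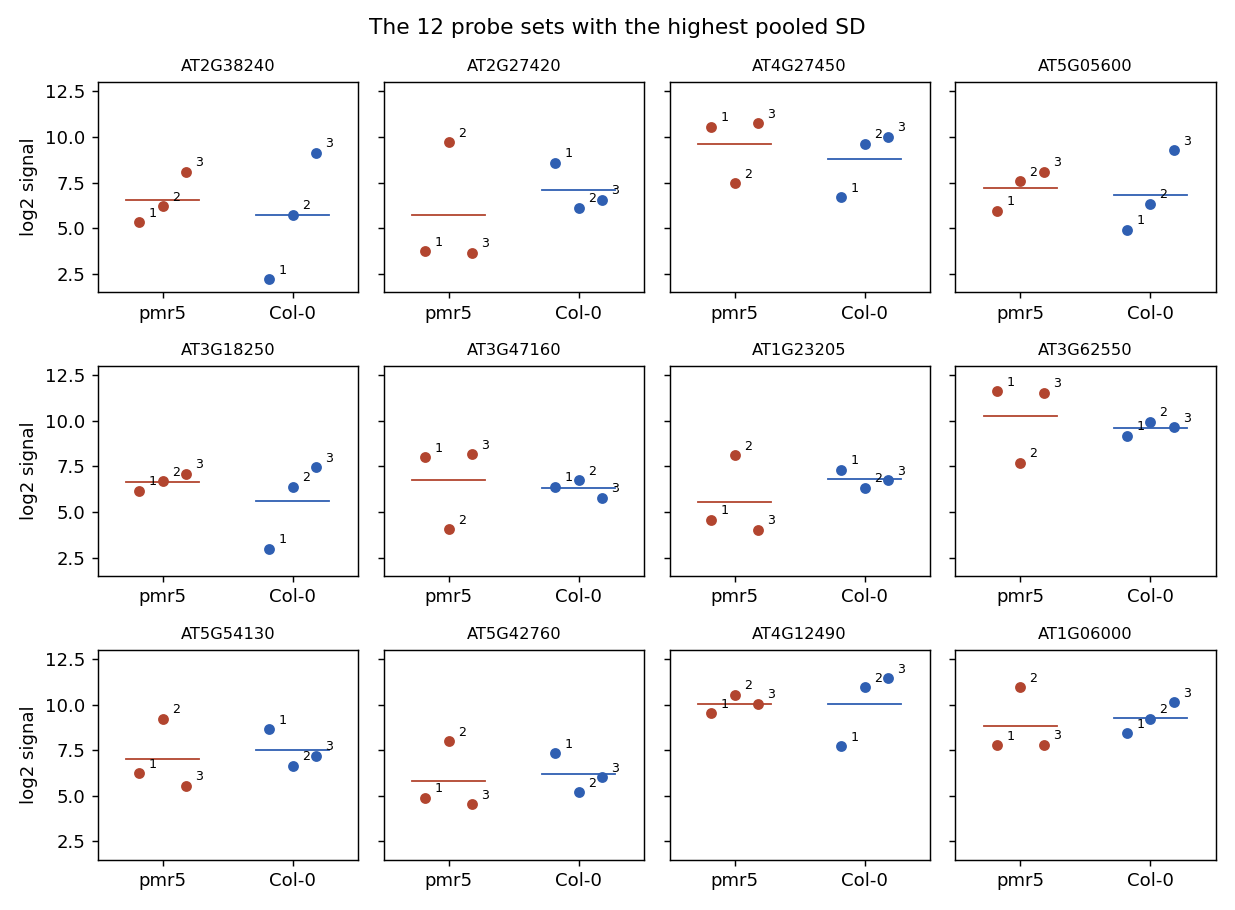
Points give the log2 signal (y axis) of the 12 members with the highest pooled SD in pmr5 and Col-0, with the replicate number beside each point and a line at the mean of each genotype (n = 3 arrays each). Single arrays stand apart from the other two of their genotype, for example pmr5 replicate 2 at 9.71 in AT2G27420 and Col-0 replicate 1 at 2.99 in AT3G18250.

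The array groups of at least 10 members were then followed on the arrays of the other genotype. In the 51 members high in pmr5 replicate 2, that array stood a median of 1.79 log2 units, or 3.45-fold, above the mean of the other two pmr5 arrays. In 33 of the 51, or 64.7%, Col-0 replicate 1 was the highest Col-0 array, against 51.3% of the other probe sets of the same kind. Col-0 replicate 2 was the lowest Col-0 array in 37 of the 51, or 72.5%, against 42.7%.

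In the 41 members low in pmr5 replicate 2, the median gap was -1.94 log2 units, a 3.85-fold lower signal than in the other two pmr5 arrays. Col-0 replicate 1 was the lowest Col-0 array in 21 of them, or 51.2%, against 32.1% of the other probe sets of the same kind. Col-0 replicate 3 was the lowest in 20, or 48.8%, against 48.4% of the others. AT2G15960 is such a member, with 9.29, 6.22 and 9.95 in pmr5 and 7.68, 8.20 and 8.28 in Col-0. It was chosen as an example after its values were seen, as were the other unnamed loci outside the 12 above.

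In the 53 members low in Col-0 replicate 1, the median gap was -1.84 log2 units, or 3.58-fold. Col-0 replicate 3 was the highest Col-0 array in 45 of the 53, against 170 of 254 other probe sets of the same kind. On the pmr5 side, replicate 2 was lowest in 52.8% of them, against 49.2% of the others, and replicate 1 in 41.5%, against 34.3%. In the 18 members high in Col-0 replicate 3, the gap was 1.90 log2 units or 3.74-fold, Col-0 replicate 1 was the lowest Col-0 array in 16, against 134 of 188 others, and pmr5 replicate 1 was the lowest pmr5 array in 14, against 74 of 188. AT2G28400 shows it, with 6.09, 7.54 and 7.47 in pmr5 and 5.13, 4.79 and 8.12 in Col-0.

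The 16 members high in Col-0 replicate 1 had a median gap of 1.92 log2 units, or 3.78-fold. AT4G21870 read 8.24, 7.56 and 8.05 in pmr5 and 10.07, 8.13 and 6.97 in Col-0. The 11 members low in pmr5 replicate 1 had a median gap of -1.59 log2 units, or 3.02-fold, and in all 11 the lowest Col-0 array was replicate 2, against 36.4% of the other probe sets of the same kind. AT1G66080 was one of them, with 5.97, 7.98 and 7.93 in pmr5 and 8.09, 6.54 and 7.04 in Col-0.

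**Figure D5:**
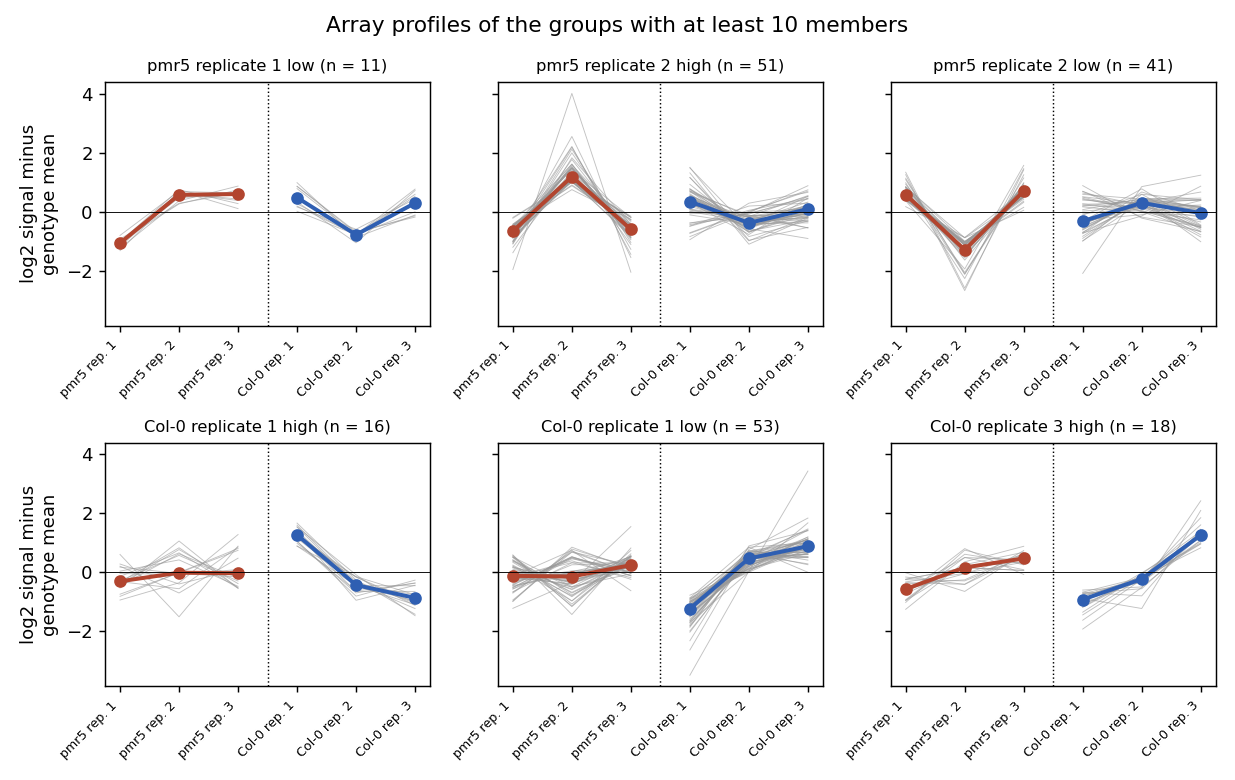
Lines give the log2 signal minus the genotype mean (y axis) on the 3 pmr5 arrays and the 3 Col-0 arrays (x axis) for the 6 array groups with at least 10 members, with single members in grey and the median of each genotype in colour. Each group departs on the array that defines it, and the 11 members low in pmr5 replicate 1 also have Col-0 replicate 2 as their lowest Col-0 array.

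Only 5 of the 200 members carry a RefSeq name beyond codes, and they fall into 4 array groups. PRX71 (AT5G64120) is peroxidase 71, a member of the secreted peroxidases that act on cell wall polymers. It read 7.29, 7.59 and 7.73 in pmr5 and 5.09, 7.58 and 8.55 in Col-0, where replicate 1 was low. AGL79 (AT1G30260) bears the name of a MADS-box transcription factor. It read 9.17, 8.85 and 9.44 in pmr5 and 7.73, 9.11 and 9.71 in Col-0, and Col-0 replicate 1 was the lowest array here too.

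TRICHOME BIREFRINGENCE (AT5G06700) gave its name to the family that includes PMR5 and is known for its part in secondary wall cellulose deposition. It read 8.81, 8.92 and 8.75 in pmr5, against 8.90, 6.74 and 8.85 in Col-0, so 5 arrays lay within a narrow band and Col-0 replicate 2 fell below it. FKBP65, also called ROF2 (AT5G48570), is a peptidyl-prolyl isomerase linked to the heat response. It read 6.44, 7.98 and 8.11 in pmr5 and 8.58, 7.003 and 7.58 in Col-0. DEWAX (AT5G61590) is a transcription factor that represses cuticular wax genes. It read 10.79, 9.07 and 10.001 in pmr5 and 10.45, 10.22 and 9.16 in Col-0, with replicate 2 lowest in pmr5 and replicate 3 lowest in Col-0.

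Of 208 genes in 20 lists of leaf processes and cell types, 35 were paired with a probe set of their own, and 1 of them was a member. The unpaired list genes may still be on the array, since 8730 of the tested probe sets had no gene name in the annotation. That member is AT2G29500, from the heat shock list, which read 5.80, 6.38 and 8.02 in pmr5 and 8.14, 5.82 and 6.33 in Col-0. Its highest arrays were pmr5 replicate 3 and Col-0 replicate 1. A pooled SD at or above the lowest of the members was reached by 20 of the 35 list genes, or 57.1%, against 4.85% of all probe sets tested. The lists had been chosen for processes that vary between plants, with earlier results of these data known, so nothing is read from these shares. The shares are also unlike, since each list gene was read by its probe set of highest mean and all probe sets tested were not so chosen.

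Genes with a symbol give a view of the functions that moved on the same arrays. This comparison was made after the members' values were seen. Of 583 probe sets with a symbol that passed the same filters, 51 or 8.75% had a pooled SD at least as high as the lowest of the members, against 5.98% of the locus-named ones. In 38 of the 51, or 74.5%, the farthest array was pmr5 replicate 2 or Col-0 replicate 1. Among the other locus-named probe sets these arrays were farthest in 60.0%. Shares per array were not computed for the symbol probe sets of lower SD, so the counts per array below are description only.

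Of the 12 symbol genes high in pmr5 replicate 2, TBL26 of the TRICHOME BIREFRINGENCE-LIKE family had the highest pooled SD, at 1.57. It read 6.99, 11.004 and 7.44 in pmr5 and 9.35, 8.96 and 9.63 in Col-0. The genes named here do not stand for the group, which also held IAGLU, AFR, UGT74D1, Hsp70-2 and JMT. The 12 also included the flavonoid genes UGT78D1 and UGT78D2, which encode flavonol glycosyltransferases, and CHIL, a chalcone isomerase-like gene. Not every such gene was high on this array, since DFR, given below, had its lowest pmr5 value in replicate 2. CHIL read 7.03, 10.14 and 6.92 in pmr5 and 7.39, 8.56 and 9.27 in Col-0. HYH, a bZIP factor of light signalling, read 5.52, 8.92 and 5.47 in pmr5 and 7.81, 6.85 and 7.80 in Col-0. GI, a component of the circadian clock, read 5.71, 7.08 and 5.53 in pmr5 and 7.14, 6.05 and 6.25 in Col-0. Of 17 clock genes listed, only GI was paired with a probe set of its own. TRY, a trichome patterning gene, read 6.57, 8.81 and 6.70 in pmr5 and 8.26, 6.47 and 7.18 in Col-0. Of 3 trichome markers, only TRY was paired with a probe set of its own. Whether the share of trichome cells had a part in this group was not tested.

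The 9 low in pmr5 replicate 2 included PORB, an enzyme of chlorophyll synthesis, at 11.55, 8.36 and 11.49 in pmr5 and 11.24, 10.73 and 9.81 in Col-0. SDP1, a lipase that breaks down storage oil, read 8.25, 6.86 and 8.42 in pmr5 and 7.11, 8.12 and 7.85 in Col-0. ATG8E, an autophagy gene, and AKINBETA1, a subunit of the energy-sensing kinase SnRK1, had their lowest Col-0 value in replicate 1, as SDP1 did. MCCA, a subunit of an enzyme of leucine breakdown, was low in pmr5 replicate 2 and in Col-0 replicate 1 as well. These genes are examples and do not stand for the group, which also held EXPA16, CCL, BGLU44 and HAT2. EXPA16 too was lowest in Col-0 replicate 1. CCL and BGLU44, like PORB, had their lowest Col-0 value in replicate 3, and HAT2 had it in replicate 2.

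Of the 13 low in Col-0 replicate 1, 3 are given as examples. They do not stand for the group, which also held the pectin methylesterase gene PME41, the response regulator gene ARR15 and EXO. GRX480, a glutaredoxin of salicylate signalling, read 6.24, 8.34 and 7.17 in pmr5 and 4.39, 6.30 and 7.77 in Col-0. The chitinase gene CHI read 6.26, 8.10 and 8.77 in pmr5 and 5.25, 7.49 and 8.98 in Col-0. DFR, an enzyme of anthocyanin synthesis, read 8.10, 7.91 and 8.55 in pmr5 and 6.45, 8.76 and 7.86 in Col-0. The 4 high in Col-0 replicate 3 included COR47, a dehydrin gene induced by cold and drought, at 8.83, 8.47 and 9.62 in pmr5 and 9.08, 8.82 and 10.47 in Col-0.

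Col-0 replicate 2 was farthest, on the low side, for 4 members and for 6 symbol genes. PDF1.2, a jasmonate-induced defensin gene, read 9.61, 10.59 and 9.85 in pmr5 and 10.24, 5.86 and 8.99 in Col-0. Its near copy PDF1.2b is read by a probe set that may share probes with it, so the pair may not be independent. STZ, a zinc finger gene that responds rapidly to stress, read 9.19, 10.27 and 10.73 in pmr5 and 9.91, 7.70 and 9.92 in Col-0. In these, as in TRICHOME BIREFRINGENCE, Col-0 replicate 2 was the lowest of the 6 arrays.

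Of the member genes, 6 had a further probe set, which the rule had not chosen. Those of AT5G50740 and AT5G62440 had means above 6 and overlapping ranges but pooled SDs of 0.55 and 0.48, below the limit. The others had means below 6. In 5 of the 6 genes the further probe set had the same farthest array on the same side, and no share was computed for comparison. AT5G54130's read 4.86, 7.98 and 4.38 in pmr5 and 7.45, 5.43 and 5.54 in Col-0, which follows the member. AT2G30600's read 6.05, 4.104 and 6.64 in pmr5, low in replicate 2 like the member's 7.86, 6.09 and 8.30. AT3G60420's stood at the lowest value of the table on all arrays and gives no information, and AT3G26590's lay between 2.30 and 3.09, close to that lowest value.

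Members that lie near each other on a chromosome were compared for their array group. In RefSeq gene order 11 pairs of members stood within 3 steps of each other, and 6 of the pairs, or 54.5%, had the same farthest array and side, against 159 of 1055 pairs, or 15.1%, in the other probe sets. Over all pairs of members, wherever they lie, 19.1% had the same array and side, and over all pairs of the other probe sets 12.3%. Of the 6 pairs, 2 come from 1 run of adjacent genes. AT4G15680, AT4G15690 and AT4G15700 are neighbours and were all low in Col-0 replicate 1. Their pmr5 values were 9.95, 8.67 and 9.68 for AT4G15680, 8.23, 6.49 and 8.23 for AT4G15690, and 8.56, 7.39 and 8.69 for AT4G15700, and each was lowest in pmr5 replicate 2. The Col-0 replicate 1 values were 6.74, 5.56 and 6.29. AT1G72900 and AT1G72920 were both low in pmr5 replicate 1. Adjacent copies may share probes, and this was not tested.

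The rule required overlapping genotype ranges, so the genotype difference is given only as context. With limma and Benjamini-Hochberg adjustment 0 members passed an adjusted p of 0.05, and 0% of the 22746 probe sets tested did. An unadjusted p under that threshold was reached by 591. With no genotype difference a share of about 0.05 would reach it by chance, and 591 is a smaller share of the 22746 than that. Leaving out pmr5 replicate 1, 2 or 3 gave unadjusted counts of 547, 1759 and 518. Leaving out Col-0 replicate 1, 2 or 3 gave 648, 660 and 894. Without both pmr5 replicate 2 and Col-0 replicate 1 the unadjusted count was 1943. Of these counts only 1759 and 1943 are larger shares than 0.05, and no genotype difference is read from any of them. The members' difference, pmr5 minus Col-0, had a median of 0.12 log2 units and ran between -1.80 in AT5G03120 and 1.41 in AT1G66760. The genotype means were at least 1 log2 unit apart in 14 members, or 7%, against 0.932% of all probe sets tested, and nothing is read from this since the rule used that contrast. The mean was higher in pmr5 for 116 members and lower for 84, against 1487 higher and 1657 lower among the other probe sets.

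The members comprised 197 protein-coding genes, 1 pseudogene and 2 transcribed pseudogenes. Of the 3145 other probe sets, 3140 read protein-coding genes, 2 read pseudogenes and 3 were unmatched in RefSeq. Chromosomes 1 to 5 held 60, 22, 32, 35 and 51 of the members, or 30%, 11%, 16%, 17.5% and 25.5%. In the other probe sets the shares were 25.2%, 14.8%, 20.9%, 14.2% and 24.8%. The median gene length was 1944.5 bp, against 2341.5 bp in the other probe sets. In 4 members an array lay below a log2 signal of 4, near the lowest values of the table, against 0 of the other probe sets.

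Measures of the whole arrays were compared beside these counts. The 2 arrays that carried most members also had the brightest hybridization spikes, which are added just before hybridization. These read 11.03, 11.36 and 10.98 in pmr5 and 11.36, 10.60 and 11.06 in Col-0. The mean 3' minus 5' signal of 3 control transcripts, a measure of RNA integrity, was 0.95, 1.11 and 0.84 in pmr5 and 0.94, 0.90 and 1.103 in Col-0, so it was highest in pmr5 replicate 2 but not in Col-0 replicate 1. Poly-A spikes, added before labelling, read 6.38, 6.52 and 6.04 in pmr5 and 6.62, 6.59 and 6.83 in Col-0. Their exact 2-sided permutation p between genotypes was 0.1, the smallest that 3 against 3 arrays can give, and 0.5 adjusted over 5 measures. The median log2 signal lay between 4.71 and 4.78 in pmr5 and between 4.68 and 4.73 in Col-0, and arrays of 1 genotype correlated at 0.985 to 0.995 in pmr5 and at 0.980 to 0.991 in Col-0.

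Of the cell type markers, 2 of 13 for mesophyll and 2 of 6 for guard cells were paired with a probe set of their own. The same held for 3 of 7 for root and 1 of 3 for trichomes, but for none of those for flower or vascular tissue. Unpaired markers may still be on the array, among the 8730 tested probe sets without a gene name or those paired with several genes. LHCB4.1 and LHCB4.2, which encode light-harvesting proteins of mesophyll, lay above 14 on every array. The guard cell list averaged 8.20 to 8.23 in pmr5 and 7.79 to 7.89 in Col-0, over 2 genes of unlike signal. Pmr5 minus Col-0 was 0.58 log2 units in AT1G22690 and 0.16 in FMA. The root list averaged 3.25, 2.93 and 4.18 in pmr5 and 2.86, 2.64 and 3.41 in Col-0. Only PYK10 was lowest in replicate 2 of each genotype, at 3.28 in pmr5 and 3.43 in Col-0. NAI2 was lowest in pmr5 replicate 1, at 2.81, and stood at 2.31 in both Col-0 replicates 1 and 2. EXPA7, which marks root hairs, stood at the lowest value of the table on all arrays. The part of these measures in the spread of the members was not tested.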

How the data were processed

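RNA from 3 pmr5 and 3 Col-0 rosette samples was hybridised to 1-colour Affymetrix arrays. The deposited values are log2 signals per probe set. Per the submitters' processing notes, the authors used RMA and affy; their versions are not given here. RMA models background, makes arrays alike and summarises probes, which can damp differences at low signal. A shared lowest value of 2.19 stood in the deposited log2 table, and no source used here says which step set it. The number of arrays limits the precision.

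Gene names came from the platform annotation, and further names and gene order from RefSeq (TAIR10.1). The 200 highest means were taken among locus-named probe sets. Pooled SDs, deviations and counts were computed in Python 3.11.15 with pandas 2.3.3. The fit of pmr5 minus Col-0 over 22746 probe sets, leaving out 64 controls, used limma 3.58.1 in R 4.3.3 with Benjamini-Hochberg adjustment at 0.05. The steps were tested on simulated data. The members and gene lists were chosen with earlier results of these data known. The naming rule took the 12 members with the highest pooled SD, members with a RefSeq name, members of a gene list and the 3 probe sets on either side of the SD limit. Alternatives were other normalizations, filters, spread measures, the replicate number as a block and leaving out each array. Promoter motifs and sequences were not analysed here.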

Additional observations from a re-analysis of the deposited data

How the results depend on the processing

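With 3 arrays a genotype, each pooled SD is imprecise, and no array can be called farthest in a genotype with 1 array left out, since the remaining 2 deviate equally. Of the 200 members, 195 stayed among the 200 most variable with quantile normalization, 196 with arrays centred on their medians, 142 with a mean above 7, 177 by the larger genotype range, 166 by the coefficient of variation of unlogged signal and 96 with no minimum mean. Leaving out 1 array kept 103 to 163 members, with 103 without pmr5 replicate 2, and leaving out both pmr5 replicate 2 and Col-0 replicate 1, an alternative added after the data were seen, kept 65. Taking the 200 highest means over all probe sets, also added later, kept 198. The members' median pooled SD was 0.684 to 0.979 when 1 array was left out and 0.393 without both arrays. Among the 142 members with a mean above 7, Col-0 replicate 1 was farthest in 40, against 69 of all 200. The limma count of 0 became 1 when only the 8879 probe sets with a mean above 6 were tested, 0 to 13 when 1 array was left out (13 with pmr5 replicate 2 left out, 4 with pmr5 replicate 3, and 2 each with pmr5 replicate 1 or Col-0 replicate 3), and 2 without both arrays; beyond fewer arrays or probe sets the cause was not tested. Deviations of arrays with the same replicate number correlated at 0.12, -0.28 and 0.20. Those of different numbers ran between -0.33 and 0.28, so these values do not tell whether the numbers pair the arrays. With the replicate number as a block, limma called 0 probe sets, 158 members stayed and the members' median pooled SD was 0.941.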
